A study of Mus musculus with 6 samples.

Results

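The glypicans and syndecans are the main heparan sulfate proteoglycans of the cell surface. They were read through every probe set paired with exactly 1 of 10 gene symbols, Gpc1 to Gpc6 and Sdc1 to Sdc4, of 18193 genes read in this way, which gave 24 of the 45037 probe sets of the array. The glypicans held 11 of these probe sets and the syndecans 13. All RNA came from GC1-Spg, an immortalised mouse cell line labelled as spermatogonial, the mitotic germ cells of the testis. One group received mrhl siRNA, directed against the noncoding RNA mrhl, and the other received scrambled siRNA, the mock control. Each siRNA was used at 100 nM, RNA was taken 44 h after transfection, and each group held 3 biological replicates, each on its own 1-colour Affymetrix array. No untransfected cells were measured. The members were chosen by family with the outcome of this same comparison known, after Gpc2 stood among its smallest p-values. The differences between the groups are therefore given as a description of the members and not as a test of them.

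Glypicans are held at the outer face of the membrane by a glycosylphosphatidylinositol (GPI) anchor, whereas syndecans cross the membrane and end in a short cytoplasmic tail. Both carry heparan sulfate, a sulfated sugar chain that binds growth factors and morphogens such as FGF, Wnt, hedgehog and midkine family proteins and presents them to their receptors. In the testis, heparan sulfate is known as part of the setting in which Sertoli cells signal to germ cells through factors such as GDNF and FGF2.

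Values are log2 expression values, so a difference of 1 is a 2-fold difference, and levels of different probe sets are not set against each other. A probe set was tested where its mean over the 6 arrays was at least 3.62, the 25th percentile of all probe sets. This left 33778 probe sets, which stood for 14885 genes, each read through its brightest tested probe set. Of the 24 member probe sets 20 were tested, covering 9 of the 10 genes. Only Gpc5 had none. The array medians differed by at most 0.11. No probe set was paired with mrhl itself, so its silencing, which the submitters checked by quantitative PCR, could not be read from these arrays. The probe sets of the germ cell genes Dazl and Ddx4 did not reach 3.62. Of 20 spermatogonial markers 14 were tested, and 7 of these lay above the median level of all probe sets, 5.23. Among those tested, means over the 6 arrays were 7.49 for Uchl1, 5.91 for Gfra1, 5.10 for Zbtb16, 3.69 for Stra8 and 3.62 for Kit. The fibroblast genes Col1a1 and Dcn stood at 12.50 and 12.58 after mrhl siRNA and at 12.19 and 12.67 after scrambled siRNA. Of the same list of 10 fibroblast and myoid markers, Pdgfrb and Lum did not reach 3.62. Transcripts of Dazl and Ddx4, as markers of the labelled cell type, were thus not shown above background.

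In the fit over all probe sets, 0 of the 20 tested member probe sets passed an adjusted p of 0.05 (limma, smallest adjusted p = 0.965), against 0 of 33778, or 0%, in all. With the replicate number as a block, 0 passed again (limma, smallest adjusted p of a member 0.487). At an unadjusted p under 0.05 the fit held 1 member probe set on the higher side and 1 on the lower side, against 1.26% and 2.18% of all probe sets. With the block these were 1 and 3, against 3.87% and 6.23%. The higher one was of Gpc2, and the lower ones were 1436514_at of Gpc4 and 1419688_at and 1428774_at of Gpc6. Of the 20 differences, mrhl siRNA minus scrambled siRNA, 7 were positive and 13 negative, with a median of -0.07. Over all tested probe sets 56.2% were negative, and the median was -0.03. Pair differences were all positive in 3 member probe sets and all negative in 6, against 14.1% and 23.4% of all. The 2 groups did not overlap in 1 member probe set that was higher after mrhl siRNA, of Gpc2, and in 1 that was lower, of Gpc6, against 2.58% and 5.82% of all tested probe sets. The median absolute difference of the members was 0.146, and that of all tested probe sets was 0.147.

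**Figure D1:**
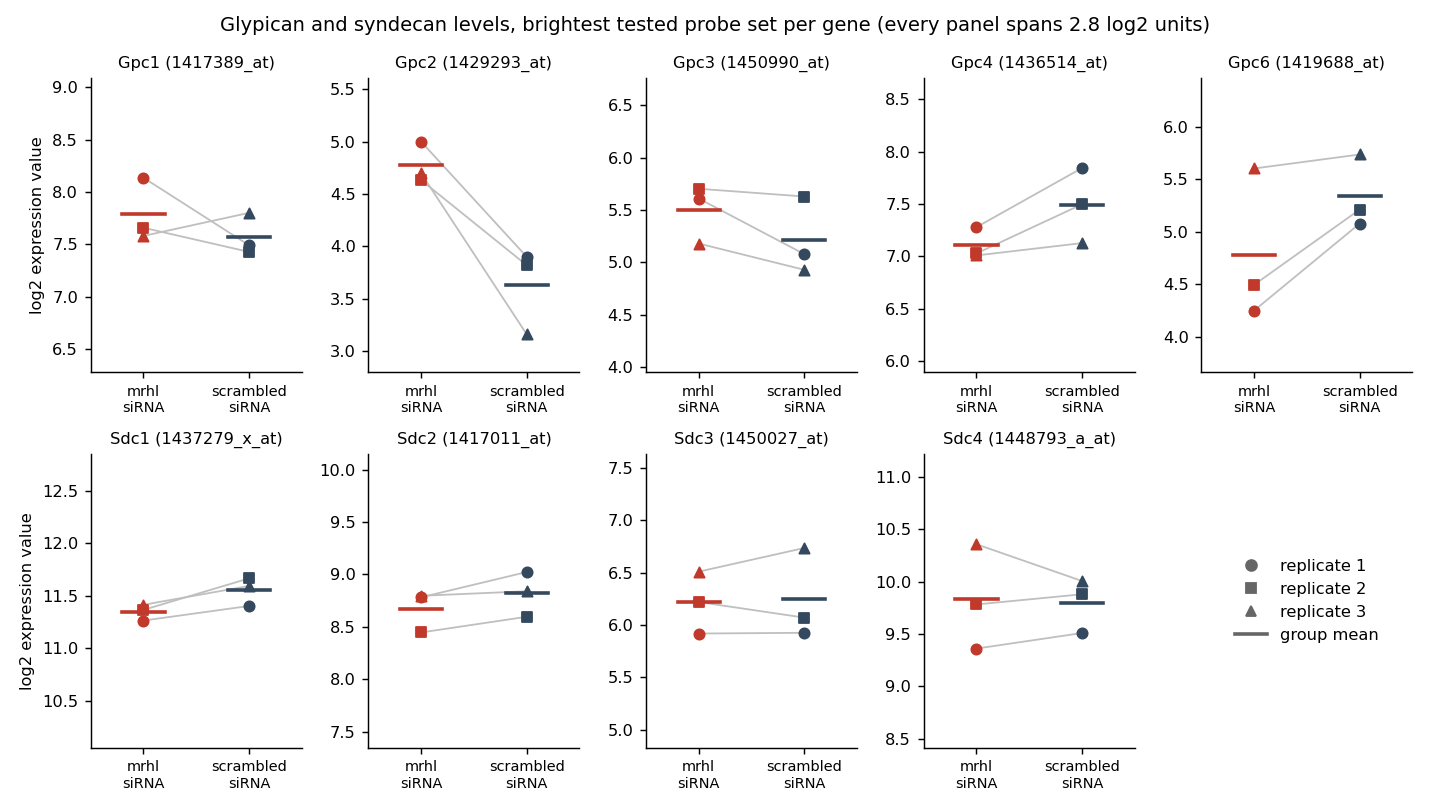
Log2 expression value of the brightest tested probe set of each glypican and syndecan gene in the 3 mrhl siRNA arrays (left) and the 3 scrambled siRNA arrays (right); thin lines join equal replicate numbers, bars are group means, and every panel spans the same range. Only the Gpc2 panel has all mrhl siRNA arrays above all scrambled siRNA arrays.

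Gpc2 had the largest difference among the members. It encodes glypican-2, also called cerebroglycan, which is known from developing neurons and binds the growth factor midkine. Its log2 values were 5.0, 4.63 and 4.70 in mrhl siRNA replicates 1, 2 and 3, against 3.90, 3.82 and 3.16 in scrambled siRNA replicates 1, 2 and 3. All 3 mrhl siRNA arrays were above all 3 scrambled siRNA arrays. The means were 4.78 ± 0.20 after mrhl siRNA and 3.63 ± 0.41 after scrambled siRNA (SD, n = 3 each), a difference of 1.15 (SE 0.229, 95% interval 0.61 to 1.68) or 2.22-fold. The differences of equal replicate numbers were 1.10, 0.81 and 1.53. The scrambled siRNA mean lay at the lower limit of 3.62, where no level above background is shown, so the size of the fold is uncertain. With an offset of 16 added on the linear scale before taking logs, which damps dim signals, the difference was 0.61. Gpc2 had only this probe set of its own. A second probe set is paired with both Gpc2 and Gal3st4, cannot be assigned to either gene, and was left out by the rule.

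The promoter of Gpc2 is shown because this member differed most. The window is the 250 bases before the start of transcription in RefSeq, build GRCm38.p6, at chr5:138279938-138280187 on the minus strand. Capitals mark matches to any of 4 short motifs, searched on both strands, namely GGGCGG, the GC box bound by Sp1-like factors, CCAAT as the CCAAT box, TATAAA as the TATA box, and CTTTG as the core of the site bound by TCF/LEF factors. Overlapping matches were each counted.
Gpc2: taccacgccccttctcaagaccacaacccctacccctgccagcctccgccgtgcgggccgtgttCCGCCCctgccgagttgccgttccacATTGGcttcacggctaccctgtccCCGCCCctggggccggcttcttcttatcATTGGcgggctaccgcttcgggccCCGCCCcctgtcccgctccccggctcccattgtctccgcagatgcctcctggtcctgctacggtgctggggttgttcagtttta
It held 3 GC boxes and 2 CCAAT boxes, and neither of the other motifs. Of 32851 RefSeq promoter windows of this length, 32.7% held a GC box, 33.8% a CCAAT box, 12.4% a TATA box and 48.6% a TCF/LEF core. Windows of 7 of the 10 members were matched, without Gpc1, Gpc6 and Sdc2. Of these 7 a GC box was found in 7, a CCAAT box in 3, a TATA box in 1 and a TCF/LEF core in 1. The GC content was 66.4% for Gpc2, against a median of 52.4% over all windows. It ran from 51.2% for Gpc5 to 76.4% for Sdc3 over the 7 members. A match is a run of letters and not a shown binding site.

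Likeness to Gpc2 was taken as the root mean square difference of values centred over the 6 arrays. It was read on the brightest tested probe set of each gene. Genes with clone-type symbols, such as those holding Rik or starting with LOC, were left out. The 5 nearest genes were Cyp2c68 at 0.209, Tro at 0.224, Gsta2 at 0.282, Fgf12 at 0.291 and Epp13 at 0.301. Cyp2c68 encodes a cytochrome P450, Tro the adhesion protein trophinin, Gsta2 a glutathione transferase and Fgf12 an intracellular FGF-like protein. Their differences ran from 0.65 for Epp13 to 1.08 for Cyp2c68, a direction that the choice by likeness to Gpc2 fixed. The scrambled siRNA means of Cyp2c68, Tro and Epp13 were 3.26, 3.52 and 3.46, under the lower limit of 3.62, so these 3 were tested only through their mrhl siRNA values. The mean level was under 5.23 for 4 of them, and only Gsta2, at 5.56, lay above it. The 6 arrays also share the treatment groups and dim signals, so this is a description of likeness on these arrays.

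Gpc6 had a negative difference on each of its 3 tested probe sets, of which 1 changed sign when an array was left out. Gpc6 encodes glypican-6, which acts on hedgehog signalling in the growth of long bones. Its brightest probe set, 1419688_at, had 4.25, 4.50 and 5.60 in mrhl siRNA replicates 1, 2 and 3, against 5.08, 5.21 and 5.74 in scrambled siRNA replicates 1, 2 and 3. The groups overlapped, since mrhl siRNA replicate 3 stood above 2 of the scrambled siRNA arrays. The difference was -0.56 (SE 0.364, 95% interval -1.41 to 0.29), and with the replicate block the interval was -1.0 to -0.12. With 1 array left out the difference ran from -0.97 without mrhl siRNA replicate 3 to -0.29 without mrhl siRNA replicate 1. The probe set 1428774_at had 3.51, 2.65 and 3.79 in mrhl siRNA replicates 1, 2 and 3, against 4.02, 4.56 and 4.01 in scrambled siRNA replicates 1, 2 and 3. Here the groups did not overlap, and the difference was -0.88 (SE 0.312). The mrhl siRNA mean of 3.32 lay under the lower limit of 3.62, so this probe set was tested only through its scrambled siRNA values, with a mean of 4.20. It was -0.55 without mrhl siRNA replicate 2, its lowest array, and -0.39 with the offset of 16. The third tested probe set, 1441438_at, had a difference of -0.13 and pair differences of 0.51, -0.50 and -0.40, on both sides of 0. Its difference was 0.02 without scrambled siRNA replicate 3 and 0.09 without mrhl siRNA replicate 2. The other 2 probe sets of Gpc6 were too dim to be tested, with differences of -0.08 and -0.10. The tested probe sets of Gpc6 thus spanned 0.75 log2 units, and all lay under the median level of 5.23.

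**Figure D2:**
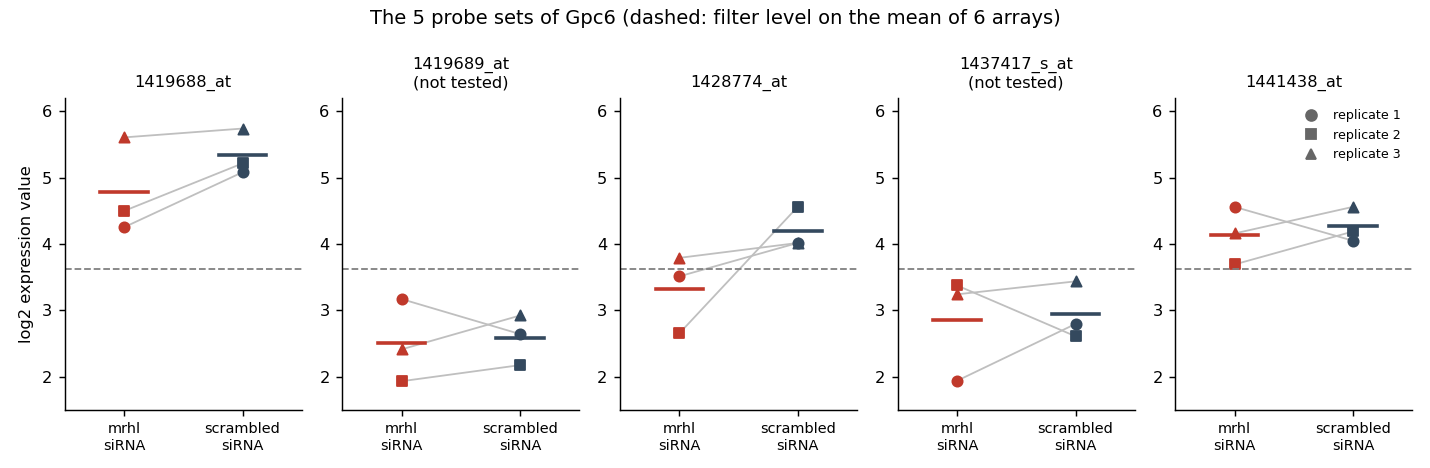
Log2 expression value of each of the 5 probe sets of Gpc6 in the mrhl siRNA arrays (left) and the scrambled siRNA arrays (right), with the lower limit of 3.62 dashed. In 1428774_at the groups do not overlap, while in the other 4 probe sets they do.

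Gpc4, which encodes glypican-4, a modulator of Wnt and FGF signalling in development, had negative differences in both probe sets. Its brighter one, 1436514_at, had 7.28, 7.03 and 7.01 in mrhl siRNA replicates 1, 2 and 3, against 7.84, 7.50 and 7.13 in scrambled siRNA replicates 1, 2 and 3. The groups overlapped only through scrambled siRNA replicate 3 and mrhl siRNA replicate 1. The difference was -0.38 (SE 0.208, 95% interval -0.87 to 0.10), with pair differences of -0.56, -0.47 and -0.12. With the replicate block the interval was -0.73 to -0.04, and the probe set did not pass (limma, adjusted p = 0.487). The dimmer one, 1421088_at, had 6.73, 5.67 and 6.05 in mrhl siRNA replicates 1, 2 and 3, against 6.86, 5.82 and 6.19 in scrambled siRNA replicates 1, 2 and 3. Its pair differences were -0.13, -0.15 and -0.14, nearly equal to each other and small beside the range of 1.05 between replicate numbers. The difference was -0.14 (SE 0.344). With the replicate block the SE was 0.105 and the 95% interval -0.41 to 0.13. The difference was positive without scrambled siRNA replicate 1, at 0.15, and without mrhl siRNA replicate 2, at 0.10. Those fits leave a replicate number with an array in only 1 group.

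Gpc1 and Gpc3 had positive differences within their spread. Gpc1, the glypican-1 gene, whose product is a co-receptor for FGFs, had 8.14, 7.66 and 7.58 in mrhl siRNA replicates 1, 2 and 3, against 7.49, 7.43 and 7.80 in scrambled siRNA replicates 1, 2 and 3. The highest array was mrhl siRNA replicate 1, and without it the difference of 0.22 (SE 0.199) was 0.05. Gpc3 encodes glypican-3, which binds hedgehog and restrains body growth, and whose loss in humans causes an overgrowth syndrome. It had 5.61, 5.70 and 5.18 in mrhl siRNA replicates 1, 2 and 3, against 5.08, 5.63 and 4.93 in scrambled siRNA replicates 1, 2 and 3. The groups overlapped, and the difference was 0.28 (SE 0.233, 95% interval -0.26 to 0.83), with 3 of 3 pairs higher after mrhl siRNA. Gpc5, whose product promotes hedgehog signalling, had a single probe set with 3.61, 2.33 and 1.58 in mrhl siRNA replicates 1, 2 and 3, against 2.86, 2.44 and 1.51 in scrambled siRNA replicates 1, 2 and 3. Each group mean lay under 3.62, so no level above background was shown for it.

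The glypican genes lie partly in pairs. Gpc3 and Gpc4 are on the X chromosome and Gpc5 and Gpc6 on chromosome 14 in the RefSeq gene table. Neighbours did not show the same direction: Gpc3 had 0.28, while the 2 probe sets of Gpc4 had -0.38 and -0.14. The difference between the 2 genes was not tested. Over the 8 tested glypican probe sets, 3 differences were positive and 5 negative. They ran from -0.88 to 1.15 around a median of -0.13.

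Among the syndecans 0 of 12 tested probe sets had groups that did not overlap, against 2.58% higher and 5.82% lower of all tested probe sets. Of the 12 differences 8 were negative, against 56.2% of all. They ran from -0.42 to 0.21 around a median of -0.04, and 11 of the 12 lay above the median level of 5.23. Sdc1 encodes syndecan-1, the main syndecan of epithelia and plasma cells, and a co-receptor for Wnt and growth factors. Its brightest probe set, 1437279_x_at, had 11.26, 11.37 and 11.41 in mrhl siRNA replicates 1, 2 and 3, against 11.40, 11.67 and 11.59 in scrambled siRNA replicates 1, 2 and 3. The groups overlapped by mrhl siRNA replicate 3 and scrambled siRNA replicate 1, and the difference was -0.21 (SE 0.142, 95% interval -0.54 to 0.13). The other 3 probe sets of Sdc1 had -0.15, -0.08 and 0.10. The suffix _x marks a probe set that may also bind other transcripts.

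Sdc2 encodes syndecan-2, the fibroglycan of mesenchymal cells. Its brightest probe set, 1417011_at, had 8.78, 8.45 and 8.80 in mrhl siRNA replicates 1, 2 and 3, against 9.02, 8.60 and 8.84 in scrambled siRNA replicates 1, 2 and 3, a difference of -0.14 (SE 0.177). The probe set 1417012_at had 8.78, 8.59 and 8.82 in mrhl siRNA replicates 1, 2 and 3, against 8.58, 8.28 and 8.70 in scrambled siRNA replicates 1, 2 and 3, a difference of 0.21 (SE 0.164). The first was lower in 3 of 3 pairs and the second higher in 3 of 3 pairs, so 2 probe sets of the same gene pointed in opposite directions. Of the other probe sets, 1 had -0.05 and 1, whose mean lay under 3.62, had -0.38.

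Sdc3, the neuronal syndecan, and Sdc4, the syndecan of focal adhesions that works with integrins and protein kinase C alpha, were close to 0 on their brightest probe sets. Sdc3 had 5.92, 6.22 and 6.51 in mrhl siRNA replicates 1, 2 and 3, against 5.93, 6.07 and 6.74 in scrambled siRNA replicates 1, 2 and 3 (1450027_at). The difference was -0.03 (95% interval -0.63 to 0.57), and its other probe sets had 0.04 and -0.01. Sdc4 had 9.36, 9.78 and 10.36 in mrhl siRNA replicates 1, 2 and 3, against 9.51, 9.88 and 10.01 in scrambled siRNA replicates 1, 2 and 3 (1448793_a_at). The difference was 0.04 (95% interval -0.60 to 0.67). The second Sdc4 probe set, 1417654_at, had 5.56, 5.87 and 6.37 in mrhl siRNA replicates 1, 2 and 3, against 5.33, 7.48 and 6.26 in scrambled siRNA replicates 1, 2 and 3. Its difference of -0.42 (SE 0.508) rested on scrambled siRNA replicate 2, and without that array it was 0.14.

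**Figure D3:**
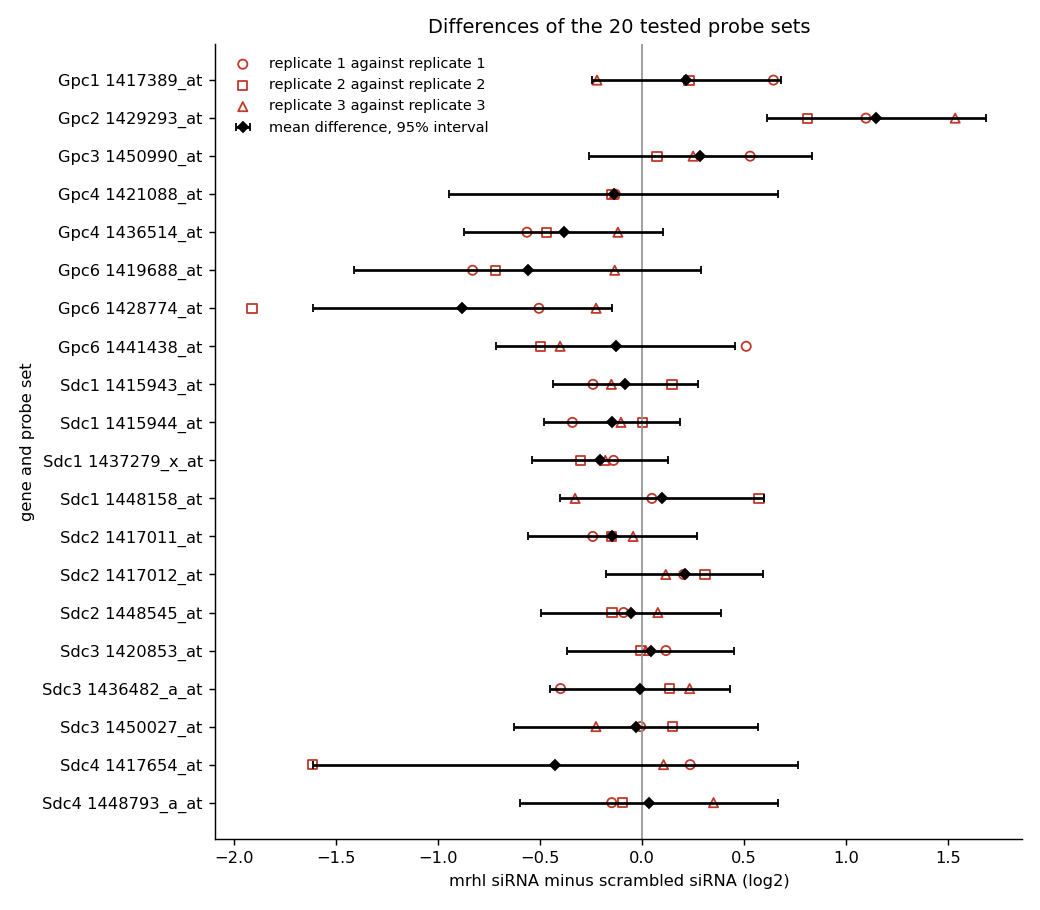
Difference, mrhl siRNA minus scrambled siRNA on the log2 scale, of each of the 20 tested probe sets, with the 95% interval of the fit without a block (diamonds and bars) and the 3 differences between equal replicate numbers (open symbols). The difference of Gpc2, at 1.15, and that of 1428774_at of Gpc6, at -0.88, lie farthest from 0; both have a group mean at or under the lower limit of 3.62.

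Differences between replicate numbers are a measure that the choice of the members did not use. The labels number the replicates and the design text speaks of independent experiments, so the effect of the replicate number was tested with the group as a covariate. None of the 33778 probe sets passed, 0% (limma F-test, smallest adjusted p = 0.124). At an unadjusted p under 0.05 stood 5 of the 20 member probe sets, 1 each of Gpc3, Gpc4, Gpc6, Sdc3 and Sdc4, against 23.1% of all probe sets, which is a share near the background. For Gpc4 1421088_at the means of the numbers 1, 2 and 3 were 6.80, 5.75 and 6.12 (limma F-test, adjusted p = 0.124). With a trended and robust variance model it passed (limma F-test, adjusted p = 0.0128), as did Sdc4 1448793_a_at (adjusted p = 0.0246), among 2885 probe sets in all. These 2 of 20 member probe sets stand against 8.54% of all. For Sdc4 1448793_a_at the means of the numbers were 9.43, 9.83 and 10.18. For Gpc6 1419688_at they were 4.66, 4.85 and 5.67. Some, though not all, of the other tested probe sets of these genes had another order of the numbers. The means were 7.56, 7.26 and 7.07 for Gpc4 1436514_at and 5.44, 6.68 and 6.32 for Sdc4 1417654_at. For Sdc3 they were 5.92, 6.15 and 6.62 in 1450027_at but 6.04, 6.07 and 5.71 in 1420853_at. The third, 1436482_a_at, rose as the first did, at 4.47, 4.60 and 4.78. For Gpc6 they were 3.76, 3.61 and 3.90 in 1428774_at and 4.30, 3.94 and 4.36 in 1441438_at. Number 3 was thus highest in each tested Gpc6 probe set, but numbers 1 and 2 changed places. Gpc3 had only 1 probe set. The full order was thus not shared by all tested probe sets of Gpc4, Gpc6, Sdc3 or Sdc4. The range between numbers was larger than the absolute difference between groups in 16 of the 20 member probe sets, against 83.9% of all tested probe sets. These are not like measures. The range is over 3 means of 2 arrays, the difference between 2 means of 3 arrays. The range thus tends to be larger even without an effect of the number. Which step of the experiments the numbers stand for is not given in the labels, and its part in these levels was not tested.

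The promoters of Gpc4 and Sdc4 are shown because 1 probe set of each passed that test in the trended model. They are the 250 bases before the start in RefSeq, build GRCm38.p6, at chrX:52164924-52165173 and chr2:164443189-164443438, each on the minus strand, with the same 4 motifs in capitals.
Gpc4: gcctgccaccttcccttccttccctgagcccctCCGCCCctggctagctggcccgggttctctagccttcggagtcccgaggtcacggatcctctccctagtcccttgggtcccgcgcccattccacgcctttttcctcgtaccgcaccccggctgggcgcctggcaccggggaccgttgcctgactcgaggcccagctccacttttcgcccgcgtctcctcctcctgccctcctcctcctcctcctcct
Sdc4: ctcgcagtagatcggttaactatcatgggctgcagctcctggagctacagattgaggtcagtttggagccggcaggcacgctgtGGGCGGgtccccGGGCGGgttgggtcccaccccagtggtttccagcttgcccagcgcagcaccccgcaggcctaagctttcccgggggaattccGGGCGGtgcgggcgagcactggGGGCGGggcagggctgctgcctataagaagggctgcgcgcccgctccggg
The Gpc4 window held 1 GC box and the Sdc4 window 4, and neither window held another of the motifs. Their GC contents were 68.4% and 68.0%.

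**Figure D4:**
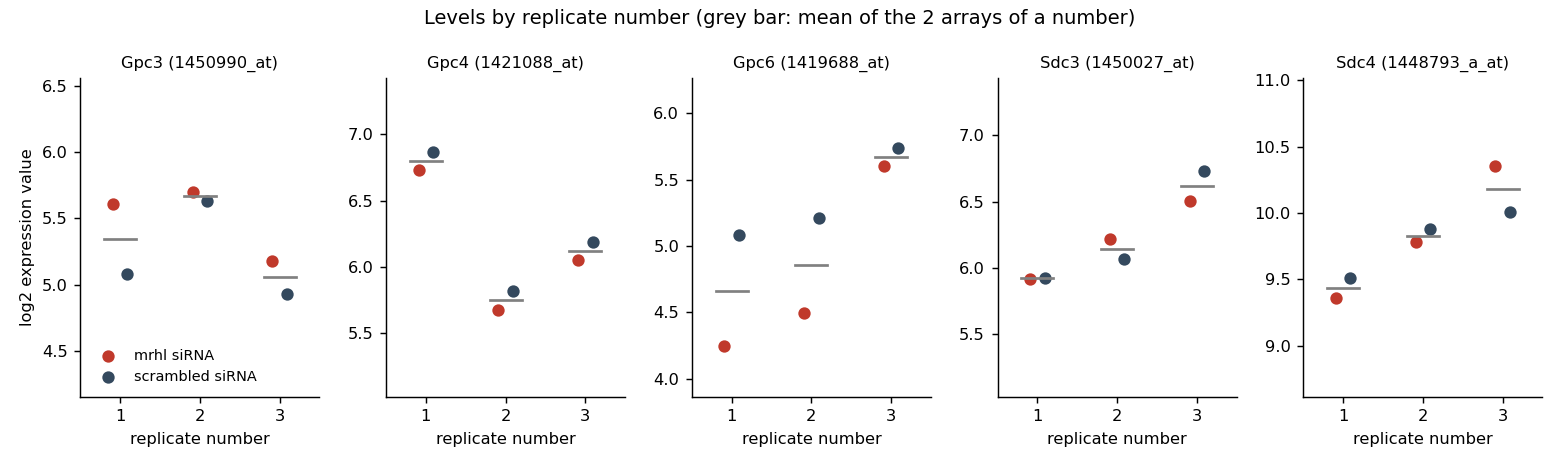
Log2 expression value by replicate number for the 5 member probe sets with an unadjusted p under 0.05 for the replicate number, mrhl siRNA left of scrambled siRNA within each number, with a grey bar at the mean of the 2 arrays. In Gpc4 the arrays of number 1 lie near 6.80 and those of number 2 near 5.75, whichever siRNA was used.

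Genes that build, modify and read heparan sulfate were taken from 8 lists, of which 81 of 95 genes were tested. None passed an adjusted p of 0.05, in either direction (limma, smallest adjusted p = 0.965), against 0% of 14885 genes. At an unadjusted p under 0.05 stood 2 higher and 2 lower, against 0.86% and 1.98% of all genes, and with the replicate block 3 higher and 6 lower, against 3.14% and 5.89% of all genes. Of these 0 passed the adjustment. Of the 81 differences 40 were positive and 41 negative (50.6%), with a median of -0.0046, while 57.9% of all genes were negative and their median was -0.04.

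Chain assembly starts with a linker of sugars on the core protein. In the list of linker enzymes 6 of 7 genes were tested, 3 with positive and 3 with negative differences (median -0.00039). Xylt2, which adds the first xylose, had 0.24 (SE 0.178), and B3gat3, which completes the linker, had 0.42 (SE 0.253). The second B3gat3 probe set had -0.05. Among the 5 genes of chain polymerization the median was 0.07. Ext1 and Ext2, whose products form the polymerase, had 0.07 (SE 0.142) and 0.20 (SE 0.178). A dimmer probe set had 0.50 (SE 0.694) for Ext1 and -0.03 (SE 0.142) for Ext2. Extl3, which begins the heparan sulfate chain, stood at 7.03 ± 0.25 after mrhl siRNA and 7.47 ± 0.22 after scrambled siRNA (SD, n = 3 each), a difference of -0.44 (SE 0.19) that was negative in 3 of 3 pairs.

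Of the genes for sulfation and epimerization 15 of 20 were tested, 8 positive and 7 negative, with a median of 0.03. Hs3st1, a 3-O-sulfotransferase that makes the antithrombin-binding form of the chain, stood at 9.05 ± 0.20 after mrhl siRNA and 8.65 ± 0.05 after scrambled siRNA (SD, n = 3 each), and its groups did not overlap. The difference was 0.41 (SE 0.155), which did not pass (limma, adjusted p = 0.965). Glce, the epimerase, had -0.42 (SE 0.201), but its dimmer probe set had -0.01. Hs6st1 had 0.34 (SE 0.255), Hs2st1 -0.10 (SE 0.139), Ndst2 0.03 (SE 0.189) and Hs3st3b1 -0.08 (SE 0.148). Among their dimmer probe sets, 1 of 3 had a positive difference for Hs2st1, 0.15, and 1 of 2 for Hs3st3b1, 0.29. Ndst1 had no probe set of its own.

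The list of remodelling and shedding enzymes, which also holds the inhibitor Timp3, had 8 positive and 6 negative differences among 14, with a median of 0.03. The 6-O-endosulfatases Sulf1 and Sulf2 had -0.24 (SE 0.228) and -0.09 (SE 0.175). Another probe set of Sulf2 had 0.27. The heparanase Hpse had -0.07 (SE 0.20), Notum, an enzyme that inactivates Wnt ligands and associates with glypicans, had 0.16 (SE 0.179), and the sheddase Adam17 had -0.12 (SE 0.133), with groups that did not overlap.

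Other proteoglycans that carry heparan sulfate gave 2 positive and 4 negative differences among 6 tested. The matrix proteoglycan perlecan, Hspg2, had 0.34 (SE 0.256) and agrin, Agrn, had -0.0093 (SE 0.174). Betaglycan, Tgfbr3, a co-receptor of TGF-beta, stood at 10.38 ± 0.19 after mrhl siRNA and 10.73 ± 0.12 after scrambled siRNA (SD, n = 3 each). Its groups did not overlap, with a difference of -0.35 (SE 0.159) that did not pass (limma, adjusted p = 0.965). The cytoplasmic partners of syndecans had 5 positive and 6 negative differences among 11. Their median was -0.14, which ran from -0.20 without mrhl siRNA replicate 3 to -0.03 without scrambled siRNA replicate 3. Syntenin, Sdcbp, whose PDZ domains bind syndecan tails, had -0.21 (SE 0.148), Cask had -0.22 (SE 0.171) and Gipc1, synectin, had 0.23 (SE 0.173). The dimmer probe sets of Sdcbp had -0.35 and 0.14, and those of Cask ran from -0.27 to 0.0067.

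Ligands and receptors that bind the chains had 7 positive and 7 negative differences among 14 tested, with a median of -0.0011. Midkine, Mdk, a ligand of Gpc2 and the syndecans, had 6.14 ± 0.17 after mrhl siRNA and 6.13 ± 0.05 after scrambled siRNA (SD, n = 3 each), a difference of 0.01 (SE 0.146). Pleiotrophin, Ptn, its relative and a ligand of Sdc3, had 0.42 (SE 0.239), and Hbegf had 0.02 (SE 0.473), while its dimmer probe set had -0.30. Ptprs, a receptor phosphatase for heparan sulfate, had -0.18 (SE 0.202), while its 3 dimmer probe sets had 0.25, 0.25 and 0.35. The probe sets of Fgf2 did not reach 3.62. The genes of GPI anchor synthesis, attachment, processing and cleavage had 4 positive and 6 negative differences among 10, with a median of -0.06.

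**Figure D5:**
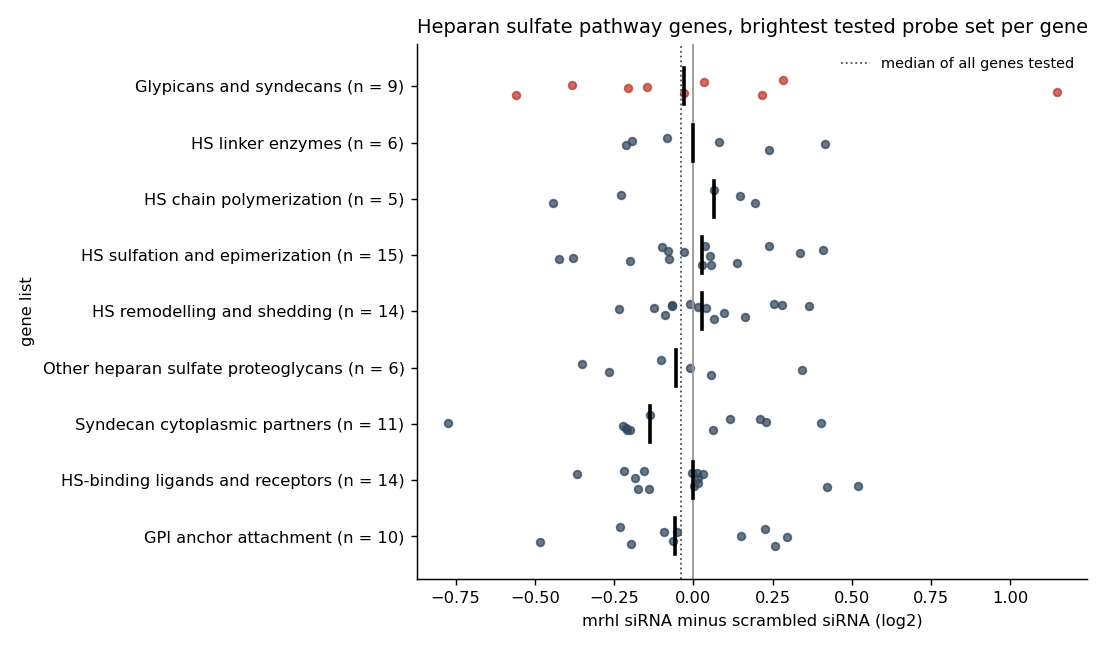
Difference, mrhl siRNA minus scrambled siRNA on the log2 scale, of each tested gene of the family (9 genes, top row) and of 8 heparan sulfate (HS) lists, with list medians as black bars and the median of all tested genes, -0.04, dotted. Gpc2, at 1.15, lies to the right of every other gene shown.

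Markers of other cell types were read beside these values. The 8 tested fibroblast and myoid markers had a summed linear signal of 15700 to 18893 in mrhl siRNA arrays and 12913 to 18248 in scrambled siRNA arrays, and 6 of the 8 had positive differences, Col3a1 with 2.04. The 10 Sertoli markers summed to 4284 to 4644 in mrhl siRNA arrays and 4267 to 4679 in scrambled siRNA arrays. For the 4 Leydig markers the sums were 100 to 141 in mrhl siRNA arrays and 107 to 142 in scrambled siRNA arrays. For the 5 blood and endothelial markers they were 614 to 831 in mrhl siRNA arrays and 582 to 780 in scrambled siRNA arrays. The 14 spermatogonial markers summed to 1855 to 2394 in mrhl siRNA arrays and 1926 to 2573 in scrambled siRNA arrays. The ranges of the 2 groups overlapped in each of the 5 lists. Such sums are carried by the brightest genes of a list, so the overlap says little about its dimmer genes. Median differences were 0.32 for fibroblast and myoid, 0.12 for blood and endothelial, -0.06 for spermatogonial, -0.07 for Sertoli and -0.10 for Leydig markers. The part of any cell type in the member values was not tested. With arrays of bulk RNA, fewer cells of a type and less RNA per cell cannot be told apart.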

How the data were processed

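RNA samples of GC1-Spg cells were measured on 6 1-colour Affymetrix arrays, 3 after mrhl siRNA and 3 after scrambled siRNA, with groups and replicate numbers from the sample titles. The deposited values are log2 expression values, made by the authors with GCOS and PLIER per the submitters' processing notes; their versions and settings, and any normalization between arrays, were not given in the sources used here. That the scale is log2 was inferred from the values, which run from -3.41 to 13.66, and they were used as deposited. Of 45101 rows 64 controls were left out, and probe sets were named through GEO's platform annotation, with 34945 paired with 1 symbol, 932 with several and 9160 not listed. The groups were compared with limma 3.58.1 in R 4.3.3 (lmFit and eBayes, Benjamini-Hochberg adjustment over 33778 probe sets, threshold 0.05), and the replicate number was tested with the group as a covariate. The fits were tested on simulated data. Precision is limited by the number of arrays: the median SE of a difference was 0.192, and 0.132 with the replicate block.

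The replicate numbers were read as pairs: deviations from group means correlated at 0.201 to 0.567 for equal numbers and at -0.518 to 0.0684 for unequal ones, against a limit of 0.1. Deviations in a group of 3 sum to 0, so these correlations are not independent. The titles call the replicates biological, and the design text speaks of independent experiments. The titles do not say whether the replicates came from separate cultures. The p-values thus set each difference against the spread between these samples.

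Members and lists were chosen with earlier results of these data known. Named were all member probe sets, a fixed set of pathway genes whatever their values, and the 5 genes nearest to Gpc2 without clone-type symbols. Planned comparisons of protein sequences were not made. Alternatives were other normalizations, filters, an offset, variance models, array weights, the replicate block, each array left out and means over probe sets. Figures were drawn with matplotlib 3.10.9.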

Additional observations from a re-analysis of the deposited data

How the results depend on the processing

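For the comparison of mrhl siRNA with scrambled siRNA, 0 member probe sets and 0 pathway genes passed in any of the 15 alternatives run. The count over all probe sets was 0 in 14 of them and 2 with the replicate block and the trended, robust variance model, of Col3a1 and Smarca4. With the replicate block alone it was 0, and it changed no call; 3411 probe sets had an unadjusted p under 0.05, against 1163 without it, and leaving out 1 array gave 676 to 2418. The Gpc2 difference of 1.15 was 0.61 with the offset of 16 and ran from 0.91 to 1.28 with 1 array left out. The filter at the median level left Gpc2 untested. The test of the replicate number passed 0 probe sets as planned. It passed 1624 (4.81%) with the offset, 1339 (5.95%) with the filter at the median level and 2885 (8.54%) with the trended, robust model. Of member probe sets it passed 1, 1 and 2, with 15 tested under the filter at the median level. With 1 array left out it passed 0 to 424 probe sets, 80 without scrambled siRNA replicate 1, 1 without scrambled siRNA replicate 3 and 424 without mrhl siRNA replicate 1, and 0 members each time. The cause was not tested. List medians of the linker, polymerization, sulfation, remodelling, ligand and GPI lists took the opposite sign in at least 2 alternatives each. Dim probe sets, as of Gpc2 and Gpc6, are limited by signal over background.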

Other observations

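The probe set paired with both Gpc2 and Gal3st4, which no value assigns to either gene, had 5.14, 6.07 and 5.70 in mrhl siRNA replicates 1, 2 and 3, against 4.24, 6.26 and 4.75 in scrambled siRNA replicates 1, 2 and 3. Its difference was 0.55 (SE 0.507), with pair differences of 0.90, -0.20 and 0.95, so the groups overlapped and the pair of number 2 went the other way.

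Outside the genes named above, 5 other pathway genes stood at an unadjusted p under 0.05 in the fit with or without the block, or both, and were picked out after their values were seen. Unc5d, a netrin receptor, had 4.53 ± 0.24 after mrhl siRNA and 4.01 ± 0.15 after scrambled siRNA (SD, n = 3 each). Pgap1, which remodels GPI anchors, had 6.90 ± 0.35 after mrhl siRNA and 7.38 ± 0.14 after scrambled siRNA (SD, n = 3 each). Hs3st6, a 3-O-sulfotransferase, had a difference of -0.38 (SE 0.162). Sdcbp2, a relative of syntenin, had a difference of -0.78 (SE 0.50), and Gdnf, the growth factor of spermatogonial stem cells, had -0.37 (SE 0.204). None of them passed the adjustment over all probe sets in either fit.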
